A study of Mus musculus with 10 samples.

Results

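The genes described here are the ligands, receptors, intracellular transducers and binding proteins of TGF-β and bone morphogenetic protein (BMP) signalling in the ventricles of the mouse heart. Members were the genes whose symbol, reached through the RefSeq accession of an array probe, starts with Bmp, Gdf, Tgfb, Inhb, Smad, Acvr or Ltbp. The rule found 58 genes with 84 probes among 22911 named genes on the array: 27 ligands, 13 receptors, 8 transducers, 5 binding proteins and 5 genes that share only the name and have another role. Murine hearts of the strain C57BL/6N were divided into right ventricle (RV), left ventricle (LV) and ventricular septum (Septum), and total RNA of each piece was measured on 1-colour microarrays, 4 arrays for RV, 3 for LV and 3 for Septum. The labels give no age, treatment or altered gene for any of the 3 groups, and state in one line that different individuals served each experiment. Whether the arrays of a region each came from another animal is not spelled out, so p-values may measure only technical spread. A piece of wall holds every cell type of that wall, so that fewer cells of a type and less RNA per cell cannot be told apart in any value below.

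In this pathway, secreted dimeric ligands bind pairs of type I and type II receptor kinases on the cell surface. The receptors phosphorylate Smad proteins, which enter the nucleus together with Smad4, while Smad6 and Smad7 inhibit the pathway and are themselves among its target genes. TGF-β is secreted in a latent complex that latent TGF-β binding proteins (the Ltbp family) anchor in the extracellular matrix. In the adult heart the pathway is known for its part in fibroblast activation and matrix production, and in the embryo for forming valves and septa.

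Each level is a log2 processed signal minus the 75th percentile of its array, so that 0 marks a spot as bright as that percentile and 1 unit is a doubling. Between 53.7% and 64.0% of the spots of an array were well above background, and no spot was saturated. The arrays lay on 2 slides: replicates 1 and 2 of every region were on slide 1, and the rest (replicate 3 of every region and RV replicate 4) on slide 2. The summed signal of 10 cardiomyocyte markers lay between 11.82 and 12.16 on the log2 scale on all 10 arrays. Deviations from the region means correlated at -0.564 to -0.207 between arrays of different slides, so the named members are also given with the slide as a term of the model (a slide block) or within each slide.

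Of the 58 members, 43 were well above background on all 10 arrays. The 45 that were so on every array of at least 1 region were tested, and Acvr1b entered only through the RV arrays and Gdf5 through RV and Septum. Not above background on any array were the ligands Bmp5, Bmp10, Bmp15, Gdf6, Gdf7 and Inhbc, of which Bmp10 is known as an atrial ligand. Another 7 members, Bmp3, Bmp8b, Gdf2, Gdf11, Acvr1c, Bmpr1b and Smad9, were above background on some arrays and were not tested.

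For Inhbb, Tgfbr2 and Tgfbi, higher in RV than in LV, the 250 bases before the transcript start are shown from the RefSeq promoter table (GRCm38.p6), 5′ to 3′ on the gene's strand. They are a ligand, a receptor and a matrix gene that differed in the same direction. Capitals mark CAGAC or its reverse complement GTCTG, the letters of a Smad3 and Smad4 binding element, and GGCGCC, the GC-rich core bound by Smad1 and Smad5.
Inhbb, chr1:119422249-119422498, minus strand: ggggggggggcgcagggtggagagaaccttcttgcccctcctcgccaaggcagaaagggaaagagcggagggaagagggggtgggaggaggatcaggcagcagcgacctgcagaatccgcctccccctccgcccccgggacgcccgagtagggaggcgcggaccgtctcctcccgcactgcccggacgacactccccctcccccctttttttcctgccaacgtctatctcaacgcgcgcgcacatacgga
Tgfbr2, chr9:116175364-116175613, minus strand: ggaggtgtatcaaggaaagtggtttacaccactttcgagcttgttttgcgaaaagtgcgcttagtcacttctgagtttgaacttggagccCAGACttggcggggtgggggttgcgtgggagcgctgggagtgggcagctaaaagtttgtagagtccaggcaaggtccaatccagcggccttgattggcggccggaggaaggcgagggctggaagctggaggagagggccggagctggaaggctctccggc
Tgfbi, chr13:56609336-56609585, plus strand: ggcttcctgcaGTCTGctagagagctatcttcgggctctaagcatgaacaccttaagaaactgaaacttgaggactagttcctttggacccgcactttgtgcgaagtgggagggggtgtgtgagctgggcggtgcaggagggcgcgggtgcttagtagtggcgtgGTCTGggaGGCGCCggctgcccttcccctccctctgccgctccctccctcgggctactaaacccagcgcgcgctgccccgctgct
The Tgfbi window held CAGAC or GTCTG at 2 places and GGCGCC at 1, the Tgfbr2 window held CAGAC or GTCTG at 1 place, and the Inhbb window held neither. The Smad6 window, which reaches into the annotated gene and is therefore not shown, held neither as well. Gdf1, with 2 starts, and Tgfbr3 are not shown. Of all 32851 windows of the same length, 42.2% held CAGAC or GTCTG, 9.59% held GGCGCC and 3.60% held both. A match is a description of the letters, not a binding site.

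RV was compared with LV first, to see which members set the right ventricle apart from the left. RV was higher than LV in 6 tested members: the ligand genes Inhbb and Gdf1, the receptors Tgfbr2 and Tgfbr3, the inhibitory transducer Smad6 and the matrix gene Tgfbi. Bmp7, a BMP ligand, was lower. The differences ran from -0.68 for Bmp7 to 0.85 for Tgfbi on the log2 scale. These 7 of 45 tested members, the ones called, are 15.6%, against 4.97% of all 14651 tested genes with a name (limma, Benjamini-Hochberg adjusted p under 0.05 over all probes). By direction, 3.13% of all tested genes were higher in RV and 1.84% lower. Of the tested members, 34 had a positive and 11 a negative difference, with a median of 0.26 against -0.05 over all tested genes. The positive count ranged from 32 to 37 under the other scalings between arrays, and many of these differences were close to 0. Scaling by the array median ended the calls of Tgfbi (adjusted p = 0.0602), Gdf1 (0.109), Tgfbr3 (0.156) and Tgfbr2 (0.165), and without the filter on dim probes only Inhbb and Smad6 passed. With the slide block, 19 members passed, 18 of them higher in RV, against 21.3% of all tested genes (8.79% higher, 12.5% lower). With the replicate number as a block 15 passed, against 17.9%. RV replicate 4 is the only array with its number, so with the replicate block the differences between regions rest on the other arrays. The RV and LV arrays did not overlap in 14 tested members (31.1%) against 22.5% of all tested genes.

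**Figure D1:**
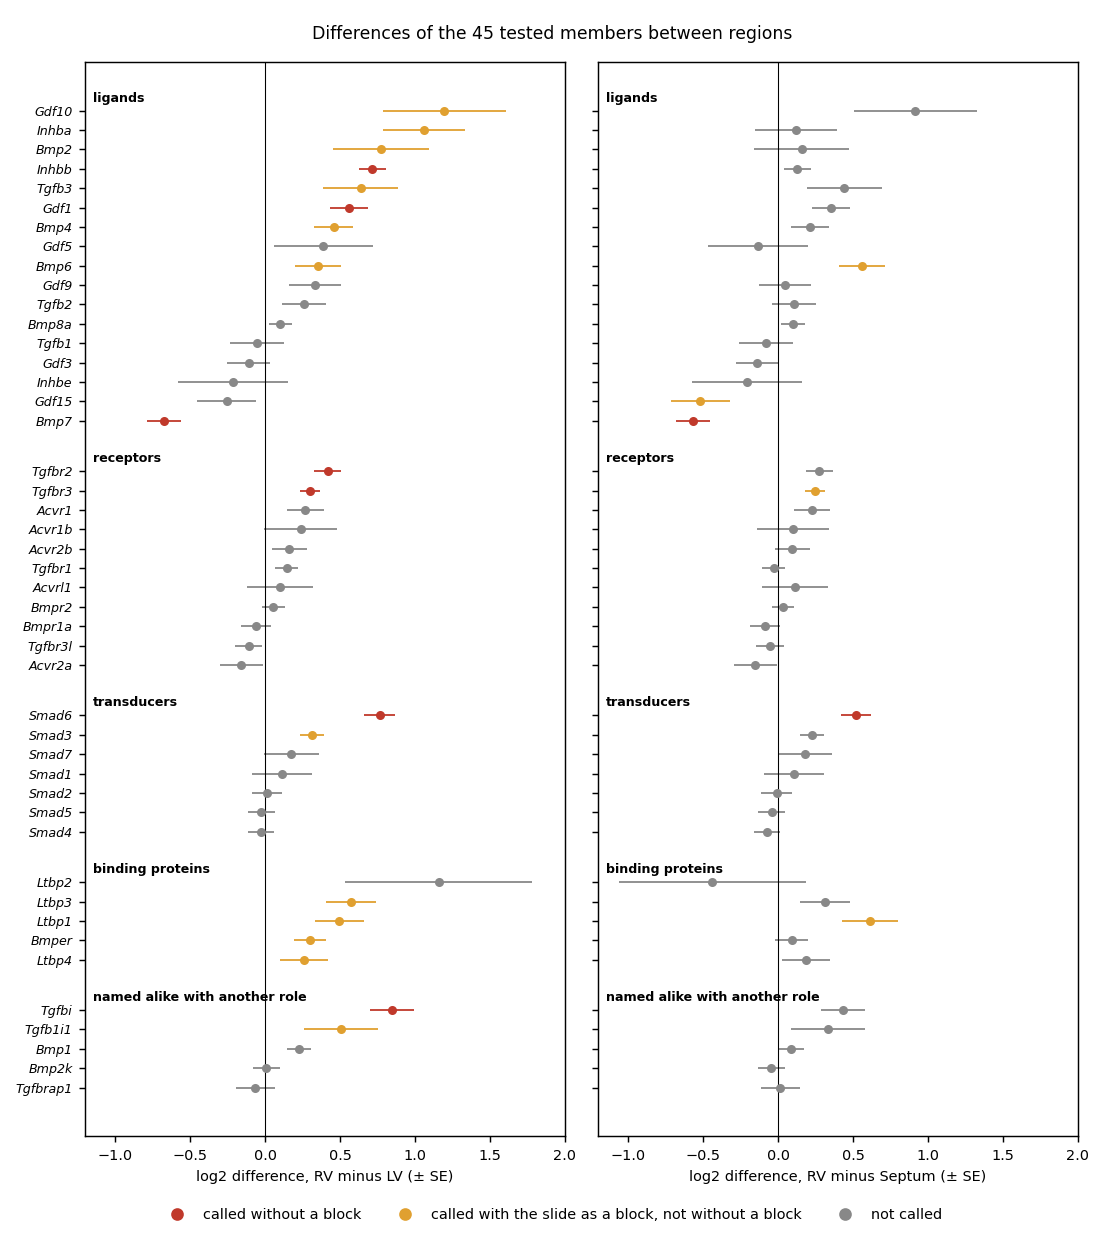
Differences between regions in log2 units (horizontal axis, RV minus LV on the left and RV minus Septum on the right) for the 45 tested members, grouped by role. Points are fitted differences and bars 1 SE. Red points passed without a block, 7 on the left and 2 on the right, and orange points passed with the slide block but not without a block.

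Among the ligands, 2 of 17 tested were higher in RV than in LV and 1 was lower (3.13% and 1.84% of all tested genes). With the slide block 8 were higher and 1 lower (8.79% and 12.5% of all tested genes). Inhbb encodes the βB subunit of activin B and inhibin B. Its level was -1.08, -0.93, -0.78 and -0.90 in RV, -1.68, -1.52 and -1.70 in LV and -1.08, -1.11 and -0.95 in Septum. All 4 RV arrays and all 3 Septum arrays lay above all LV arrays. RV exceeded LV by 0.72 ± 0.09 (SE, a 1.64-fold difference, adjusted p = 0.00436), and it was 0.60 on slide 1 and 0.86 on slide 2. It passed in each of the 10 fits that left out 1 array.

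Bmp7 was the only member called lower in RV than in LV. It read -2.35, -2.35, -2.33 and -2.28 in RV, -1.57, -1.65 and -1.73 in LV and -2.06, -1.68 and -1.55 in Septum. The RV arrays lay below every array of the other regions. RV was lower than LV by a log2 difference of -0.68 ± 0.11 (adjusted p = 0.0144), with -0.74 within slide 1 and -0.58 within slide 2. The call was lost without LV replicate 1 or 2, where the adjusted p rose to at most 0.0656.

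Gdf1, a ligand known from left-right patterning of the embryo, shares its locus with Cers1 in the RefSeq table, so its probe may also read transcripts that the genes have in common. The Gdf1 probe gave -0.51, -0.72, -0.25 and -0.55 in RV, -1.04, -0.99 and -1.18 in LV and -0.63, -0.98 and -0.97 in Septum. RV lay above LV on all arrays, and Septum replicate 1 lay within the RV range. The difference of 0.56 ± 0.13 (adjusted p = 0.0437) was 0.40 on slide 1 and 0.78 on slide 2. It passed in only 2 of the 10 fits with an array left out, those without RV replicate 2 or Septum replicate 1, and the adjusted p reached 0.130 in the others.

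Of the 11 tested receptors, 2 were higher in RV than in LV and none was lower (3.13% and 1.84% of all tested genes). Tgfbr2 encodes the type II receptor that binds TGF-β itself. Tgfbr2 levels were 2.99, 3.15, 3.21 and 3.23 in RV, 2.58, 2.78 and 2.83 in LV and 2.81, 2.88 and 2.93 in Septum. Every RV array lay above every LV and Septum array. The difference from LV was 0.42 ± 0.09 (adjusted p = 0.0388), with 0.40 on slide 1 and 0.39 on slide 2. Tgfbr3, or betaglycan, is a co-receptor that presents TGF-β ligands. It stood at 2.44, 2.43, 2.34 and 2.5 in RV, 2.13, 2.14 and 2.11 in LV and 2.18, 2.22 and 2.14 in Septum. Here too RV stood above both other regions on all arrays, by 0.30 ± 0.07 against LV (adjusted p = 0.0408), with 0.30 on slide 1 and 0.32 on slide 2. Both calls depended on single arrays. Tgfbr2 passed only without RV replicate 1 among the fits with 1 array left out (adjusted p up to 0.135), and Tgfbr3 only without RV replicate 3 (up to 0.127). With the slide block both passed, at adjusted p = 0.00714 for Tgfbr2 and 0.00824 for Tgfbr3. With that block 21.3% of all tested genes passed, 8.79% higher in RV.

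The other 9 tested receptors, Acvr1, Acvr1b, Acvr2a, Acvr2b, Acvrl1, Bmpr1a, Bmpr2, Tgfbr1 and Tgfbr3l, had differences between RV and LV of -0.16 (Acvr2a) to 0.27 (Acvr1), and none passed with or without the slide block. Tgfbr1, the type I partner of Tgfbr2, was one of them, at 0.14 ± 0.08. The BMP receptor Bmpr2 differed by 0.06 ± 0.07.

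Among the 7 tested transducers, Smad6 alone passed without a block, beside 4.97% of all tested genes. With the slide block 2 passed, beside 21.3%. Smad6 is an inhibitory Smad that acts mainly on BMP signalling. Smad6 levels were 0.06, 0.16, 0.17 and 0.17 in RV, -0.85, -0.43 and -0.59 in LV and -0.49, -0.32 and -0.31 in Septum. The RV arrays lay above all arrays of both other regions. RV exceeded LV by 0.77 ± 0.10 (1.70-fold, adjusted p = 0.00552), with 0.75 on slide 1 and 0.76 on slide 2, and passed in all 10 fits with 1 array left out. Smad3, which carries TGF-β and activin signals, read 1.61, 1.48, 1.66 and 1.61 in RV, 1.32, 1.31 and 1.20 in LV and 1.48, 1.35 and 1.26 in Septum. RV and LV arrays of Smad3 did not overlap, and the difference of 0.31 ± 0.08 (adjusted p = 0.0667) passed only with a block (0.32, adjusted p = 0.0199 with the slide, 0.0453 with the replicate number). The other 5, Smad1, Smad2, Smad4, Smad5 and Smad7, differed by -0.03 (Smad4) to 0.18 (Smad7), and none passed. The number of transducers with a positive difference, 5 of 7, was 7 after quantile normalization, 4 with median scaling and 2 on slide 1 alone.

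Tgfbi, a secreted matrix protein named for its induction by TGF-β, had the largest difference of the called members. It read 3.37, 3.30, 3.94 and 3.69 in RV, 2.68, 2.73 and 2.78 in LV and 3.24, 3.03 and 3.15 in Septum. The regions did not overlap, with RV highest and LV lowest. RV exceeded LV by 0.85 ± 0.15 (1.80-fold, adjusted p = 0.0168). The difference was 0.63 on slide 1 and 1.04 on slide 2, and the call was lost without RV replicate 4 or without any 1 of the LV arrays (adjusted p up to 0.0708).

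**Figure D2:**
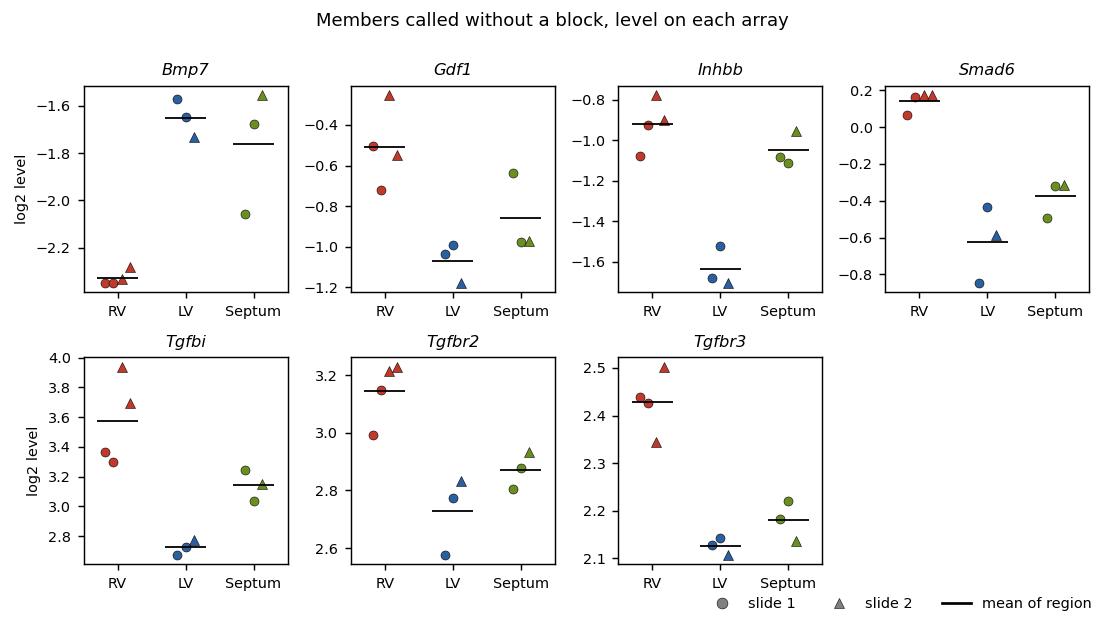
Level of the 7 members that passed without a block on each array (vertical axis, log2 units relative to the 75th percentile of the array). Circles are slide 1, triangles slide 2, and lines region means. The 4 RV arrays lie above all LV arrays in 6 panels and below them for Bmp7.

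A further 12 members passed between RV and LV with the slide block and not without a block, all of them higher in RV. Their arrays shifted with the slide in several cases, so that the pooled spread was wide while the difference within a slide had one sign. Of these 12, 6 are ligand genes, and the replicate block called 8 of the 12, all but Bmper, Gdf10, Inhba and Tgfb3.
Bmp2, a BMP ligand, read -1.99, -2.28, -1.05 and -1.45 in RV, -2.64, -2.83 and -1.92 in LV and -1.84, -2.18 and -1.52 in Septum. The slide 2 arrays, RV replicates 3 and 4 and LV replicate 3, were the highest of their regions. RV minus LV was 0.77 ± 0.32 (adjusted p = 0.217) without a block and 0.65 ± 0.14 (adjusted p = 0.0187) with it, and 0.60 and 0.67 on the slides. The closely related ligand Bmp4 stood at 2.14, 2.10, 2.53 and 2.38 in RV, 1.83, 1.73 and 1.93 in LV and 2.21, 1.87 and 2.15 in Septum, so that RV and LV did not overlap. With the block the Bmp4 difference was 0.42 ± 0.09 (adjusted p = 0.0193), against 0.46 (adjusted p = 0.0848) without it.

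Bmp6, a ligand best known for regulating iron through hepcidin, read 0.60, 0.62, 0.96 and 0.96 in RV, 0.29, 0.39 and 0.62 in LV and -0.05, 0.25 and 0.49 in Septum. RV lay above Septum on all arrays, and the slide 2 array of LV reached the slide 1 arrays of RV. With the block RV exceeded LV by 0.30 ± 0.07 (adjusted p = 0.0298), against 0.35 (adjusted p = 0.240) without it. With the replicate block Bmp2, Bmp4 and Bmp6 passed at adjusted p = 0.0222, 0.0335 and 0.0378.

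Gdf10, an atypical member close to Bmp3, varied most among the tested ligands. It gave -0.08, -0.61, 1.27 and 0.66 in RV, -0.90, -1.11 and -0.64 in LV and -0.33, -1.19 and -0.28 in Septum. The 2 RV arrays of slide 2 stood above the rest, and RV and LV did not overlap. The difference was 0.66 on slide 1 and 1.61 on slide 2, 1.20 ± 0.41 without a block (adjusted p = 0.145), 1.06 ± 0.29 with the slide block (adjusted p = 0.0392), and missed the threshold with the replicate block (adjusted p = 0.0543).

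Inhba encodes the βA subunit of activin A. Its arrays read -1.16, -0.69, 0.24 and -0.55 in RV, -1.45, -1.50 and -1.85 in LV and -0.49, -0.66 and -0.82 in Septum. LV was the lowest region, and RV and Septum overlapped. RV minus LV was 1.06 ± 0.27 (adjusted p = 0.0653), 1.04 with the slide block (adjusted p = 0.0386) and 0.56 and 1.69 on the slides, with adjusted p = 0.0872 under the replicate block. Tgfb3, a TGF-β isoform, stood at 2.41, 2.40, 3.43 and 3.04 in RV, 2.04, 2.13 and 2.36 in LV and 2.32, 2.13 and 2.68 in Septum. RV was above LV on all arrays, and most on slide 2 (0.31 on slide 1, 0.87 on slide 2). It passed with the slide block (0.54 ± 0.14, adjusted p = 0.0284), not without a block (0.64, adjusted p = 0.200) and not with the replicate block (adjusted p = 0.0666). The other isoforms did not pass either way. Tgfb1 differed by -0.05 ± 0.18 and Tgfb2 by 0.26 ± 0.15. Gdf3, Gdf5, Gdf9, Bmp8a and Inhbe lay between -0.21 (Inhbe) and 0.39 (Gdf5), and none passed.

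All 5 binding proteins had a positive difference between RV and LV under every scaling. None passed without a block (4.97% of all tested genes did), and 4 passed with the slide block (21.3% of all tested genes did). Ltbp1, Ltbp3 and Ltbp4 anchor latent TGF-β in the matrix. Ltbp1 read 1.52, 1.48, 1.99 and 1.93 in RV, 1.1, 1.1 and 1.5 in LV and, with the spot of Septum replicate 3 left out as an outlier, 1.19 and 1.04 in Septum. Within each slide RV stood above LV, by 0.40 and 0.46, while the LV array of slide 2 reached the RV arrays of slide 1. The block turned a difference of 0.50 ± 0.16 (adjusted p = 0.141) into 0.42 ± 0.06 (adjusted p = 0.00536, and 0.0179 with the replicate block).

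Ltbp3 levels were 2.55, 2.71, 3.20 and 3.02 in RV, 2.02, 2.40 and 2.48 in LV and 2.54, 2.49 and 2.65 in Septum, and RV and LV did not overlap. With the slide block RV exceeded LV by 0.52 ± 0.11 (adjusted p = 0.0183; 0.0950 without a block, 0.0388 with the replicate block). For Ltbp4 the arrays gave 5.96, 6.05, 6.37 and 6.35 in RV, 5.72, 5.82 and 6.23 in LV and 5.85, 5.91 and 6.23 in Septum. The slide 2 arrays of all 3 regions read higher than the slide 1 arrays, and the difference with the block was small, 0.19 ± 0.05 (adjusted p = 0.0401; 0.425 without a block, 0.0468 with the replicate block).

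Bmper encodes a secreted protein that binds BMPs. Bmper stood at 0.19, 0.36, -0.03 and 0.24 in RV, -0.20, 0.04 and -0.18 in LV and 0.21, 0.07 and 0.02 in Septum, with overlap between RV and LV. Its difference was 0.32 ± 0.09 with the slide block (adjusted p = 0.0442), and it did not pass without a block (adjusted p = 0.164) or with the replicate block (adjusted p = 0.0875). Ltbp2 is a family member that binds fibrillin microfibrils rather than latent TGF-β. Its spread was the widest of the binding proteins, with 0.44, 0.53, 2.98 and 2.47 in RV, 0.26, 0.29 and 0.78 in LV and 2.04, 1.37 and 2.72 in Septum. The RV arrays split by slide, replicates 1 and 2 near LV and replicates 3 and 4 near Septum. RV minus LV was 0.20 on slide 1 and 1.95 on slide 2, and the pooled 1.16 ± 0.62 did not pass (adjusted p = 0.349; 0.104 with the slide block).

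Tgfb1i1, which despite its name encodes a focal adhesion adaptor, read 1.15, 1.32, 1.91 and 1.79 in RV, 0.71, 0.92 and 1.47 in LV and 1.07, 0.96 and 1.6 in Septum. Slide 2 was the higher slide in each region, and RV stood above LV by 0.42 on slide 1 and 0.38 on slide 2. It passed with the block (0.40 ± 0.07, adjusted p = 0.00931), not without a block (adjusted p = 0.299), and also with the replicate block (adjusted p = 0.0202). Bmp1, a metalloprotease that processes procollagen, differed by 0.23 ± 0.08 with arrays that did not overlap, but did not pass (adjusted p = 0.161). Bmp2k and Tgfbrap1 differed by 0.01 and -0.07.

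**Figure D3:**
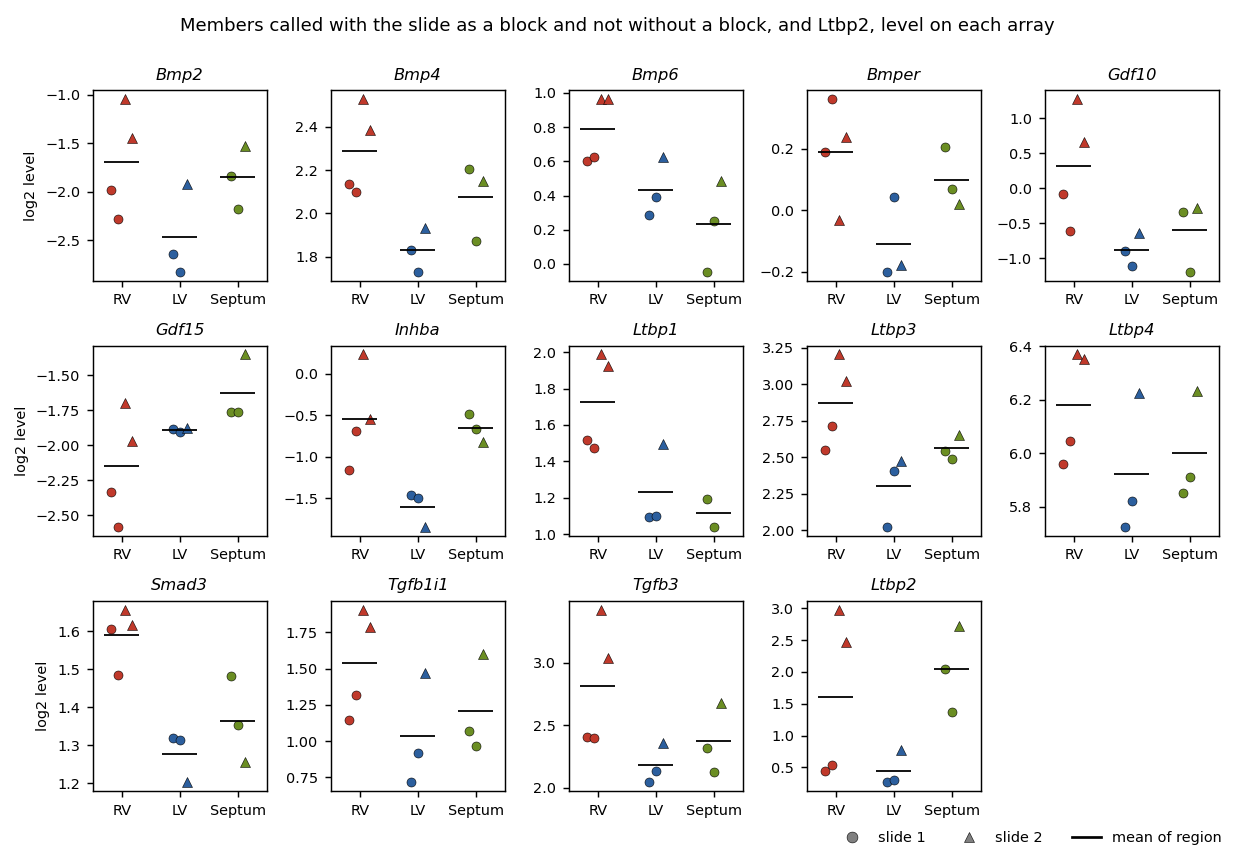
Level on each array (vertical axis, log2 units relative to the 75th percentile of the array) of the 13 members that passed with the slide block in at least 1 comparison and in none without a block, and of Ltbp2. Circles are slide 1, triangles slide 2, and lines region means. In panels such as Ltbp1, Ltbp4 and Tgfb1i1 the triangles lie above the circles of the same region.

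RV was also compared with Septum, the other tissue that the right ventricle adjoins. The comparison uses the same 4 RV arrays as the one with LV, so both were read side by side and not as separate evidence. Smad6 was higher in RV and Bmp7 lower, and these 2 of 45 tested members (4.44%) stand against 2.7% of all tested genes (1.68% higher and 1.02% lower in RV). Smad6 exceeded Septum by 0.52 ± 0.10 (adjusted p = 0.0383), with 0.52 and 0.49 on the slides. Bmp7 differed from Septum by -0.56 ± 0.11 (adjusted p = 0.0408), with -0.48 and -0.75 on the slides. Leaving out 1 array ended the Smad6 call in 8 of 10 fits, all but those without LV replicate 1 or 2 (adjusted p up to 0.123). The Bmp7 call ended in 9 of 10, all but the fit without Septum replicate 1 (up to 0.176). Median scaling also ended both calls, at adjusted p = 0.0685 for Smad6 and 0.134 for Bmp7.

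With the slide block 6 members (13.3%) passed against Septum, beside 11.1% of all tested genes (5.34% higher, 5.71% lower). RV was higher in Smad6, Tgfbr3 (0.25 ± 0.05, adjusted p = 0.0239), Bmp6 (0.50 ± 0.07, adjusted p = 0.00661) and Ltbp1 (0.39 ± 0.06, adjusted p = 0.0118), the last against 2 Septum arrays of slide 1. It was lower in Bmp7 and in Gdf15, a stress-induced and distant member of the family. Gdf15 read -2.33, -2.58, -1.70 and -1.97 in RV, -1.88, -1.91 and -1.88 in LV and -1.76, -1.76 and -1.35 in Septum. Within each slide the RV arrays of Gdf15 lay below the Septum arrays, with differences of -0.69 on slide 1 and -0.48 on slide 2. The difference was -0.58 ± 0.13 with the block (adjusted p = 0.0299) and -0.52 (adjusted p = 0.272) without it. The replicate block called 6 as well, against 8.7% of all tested genes, with Tgfbr2 (0.25, adjusted p = 0.0442) in place of Gdf15 (adjusted p = 0.0774). Arrays of RV and Septum did not overlap in 8 tested members (17.8%), beside 16% of all tested genes. Inhbb and Inhba, which were low in LV, did not pass between RV and Septum, where they differed by 0.13 ± 0.09 and 0.12 ± 0.27.

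Between Septum and LV no member and no other named gene passed without a block in limma (0% of all tested genes), and with the slide block no member passed beside 0.0751% of all tested genes. At an unadjusted p under 0.05 there were 5 members (11.1%), Inhbb, Inhba, Ltbp2, Smad6 and Tgfbi, against 2.91% of all tested genes, all with Septum above LV. The largest of these differences was 1.6 ± 0.67 for Ltbp2, and the smallest p belonged to Inhbb, at 0.59 ± 0.10 (adjusted p = 0.221, 0.0751 with the slide block). Of the members, Inhbb alone was called by the one-way analysis of variance with Tukey correction that the methods name (adjusted p = 0.0183). Here its p was also Benjamini-Hochberg adjusted over all tested probes, a step that the methods do not name. The direction of small differences here followed the scaling: 36 of 45 were positive with the 75th percentile, 24 with the median and 40 with the percentile over detected probes.

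Among the untested members, Gdf2 and Acvr1c were picked out after their values were seen. Gdf2, a circulating BMP ligand made mostly in the liver, gave -3.07, -2.91, -4.89 and -3.97 in RV, where 3 of 4 arrays were above background, and -5.35, -5.56 and -5.72 in LV and -6.63, -6.12 and -5.72 in Septum, where none was. Acvr1c, a type I receptor for activin-like ligands known from fat tissue, gave -4.35, -5.06, -4.28 and -3.86 in RV, with 3 of 4 arrays above background, and -6.70, -5.62 and -5.81 in LV and -5.83, -6.19 and -5.81 in Septum, with none. Without the filter on dim probes neither passed against LV, at adjusted p = 0.171 for Gdf2 and 0.0893 for Acvr1c.

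The other genes of the pathway came from a list of antagonists, storage and activation factors, further ligands, intracellular regulators and induced transcripts, 66 on the array and 57 tested. Between RV and LV 8 were higher in RV and none was lower (3.13% and 1.84% of all tested genes). With the slide block 14 were higher and 4 lower (8.79% and 12.5% of all tested genes). The 8 without a block were 3 of 14 tested secreted antagonists and co-receptors, 1 of 13 storage and activation genes, none of 4 further ligands, none of 12 intracellular regulators and 4 of 14 induced transcripts. Smad6 and Tgfbi, described above, are 2 of the 4 induced transcripts. Against Septum 2 were higher, Id2 and Smad6, beside 1.68% of all tested genes.

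Id2 and Id4, inhibitors of helix-loop-helix factors and known BMP targets, are the other 2. Id2 read 1.23, 1.14, 1.17 and 1.32 in RV, 0.06, 0.01 and -0.08 in LV and 0.37, 0.12 and 0.19 in Septum. Its RV arrays stood above all others, by 1.22 ± 0.08 against LV (adjusted p = 0.000587) and 0.99 ± 0.08 against Septum (adjusted p = 0.000851), and both calls held in all 10 fits with 1 array left out. Id4 gave -3.33, -3.29, -2.77 and -2.78 in RV and -4.05, -3.46 and -3.43 in Septum, and -5.21, -4.92 and -4.29 in LV, where no array was well above background. Measured against the lowest signal called above background, Id4 was at least 1.64-fold higher in RV than in LV. The limma call (adjusted p = 0.00699) belongs to the fitted difference, which uses the LV signals below background, and not to this bound. Id4 entered the test only through regions other than LV.

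Chrdl1, a secreted BMP antagonist of the chordin family, stood at -0.80, -1.0, -0.98 and -1.01 in RV, -2.70, -2.96 and -3.57 in LV, where 2 of 3 arrays were above background, and -1.57, -2.77 and -1.79 in Septum. The 3 regions were ordered RV, Septum, LV by their means, with RV apart from both others on all arrays. RV minus LV was 2.13 ± 0.28 (adjusted p = 0.00535), a fitted difference that includes an LV signal not above background. Chrdl1 entered the test through RV and Septum. Fibromodulin (Fmod), a small proteoglycan that binds TGF-β, read 0.02, 0.04, 1.34 and 0.60 in RV, -1.89, -1.91 and -1.97 in LV and -0.04, -0.96 and 0.38 in Septum, lowest in LV on every array and overlapping between RV and Septum. It differed by 2.42 ± 0.36 between RV and LV (adjusted p = 0.00893). Decorin (Dcn), a proteoglycan of the same kind and a fibroblast marker, gave 8.22, 8.15, 8.17 and 8.15 in RV, 7.84, 7.80 and 7.51 in LV and 8.07, 7.96 and 7.77 in Septum. RV exceeded LV by 0.46 ± 0.10 (adjusted p = 0.0428), a call kept only without Septum replicate 3 (adjusted p up to 0.114).

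Thbs1 encodes thrombospondin, an activator of latent TGF-β. Its levels were -0.46, -0.40, 0.90 and 0.04 in RV, -2.35, -1.64 and -1.73 in LV and 0.07, -1.09 and 0.50 in Septum, with LV below every array of the other regions. RV minus LV was 1.93 ± 0.42 (adjusted p = 0.0396), kept only without Septum replicate 2 or 3 (adjusted p up to 0.139). Nbl1, a BMP antagonist, passed with the slide block at 0.52 (adjusted p = 0.00656), from 3.12, 3.36, 3.72 and 3.65 in RV, 2.68, 2.91 and 3.07 in LV and 3.03, 2.96 and 3.29 in Septum.

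The intracellular regulators Hipk2, Ppm1a and Tob1 were lower in RV than in LV with either block, and none of them passed without a block on all arrays. The replicate block gave adjusted p = 0.0102, 0.0176 and 0.0235. On slide 1 alone Hipk2 passed too (adjusted p = 0.0464). In the opposite direction, the corepressor Tgif2, named after its values were seen, was higher in RV by 0.46 with the slide block (adjusted p = 0.0375; 0.123 without a block). Hipk2, a kinase, read 0.81, 0.89, 1.17 and 1.29 in RV, 1.35, 1.49 and 1.53 in LV and 1.16, 1.28 and 1.52 in Septum, and differed by -0.46 (adjusted p = 0.00673; 0.124 without a block). Ppm1a, a phosphatase that acts on Smads, stood at 0.79, 0.86, 1.02 and 1.07 in RV, 1.22, 1.24 and 1.26 in LV and 1.16, 1.25 and 1.32 in Septum, below both other regions on all RV arrays, with -0.33 against LV (adjusted p = 0.00975; 0.0893 without a block). Tob1, a repressor of Smad signalling, gave 1.04, 1.19, 1.59 and 1.53 in RV, 1.52, 1.63 and 1.78 in LV and 1.30, 1.47 and 1.79 in Septum. RV and LV of Tob1 overlapped across slides and differed by -0.37 with the block (adjusted p = 0.0144; 0.332 without a block).

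**Figure D4:**
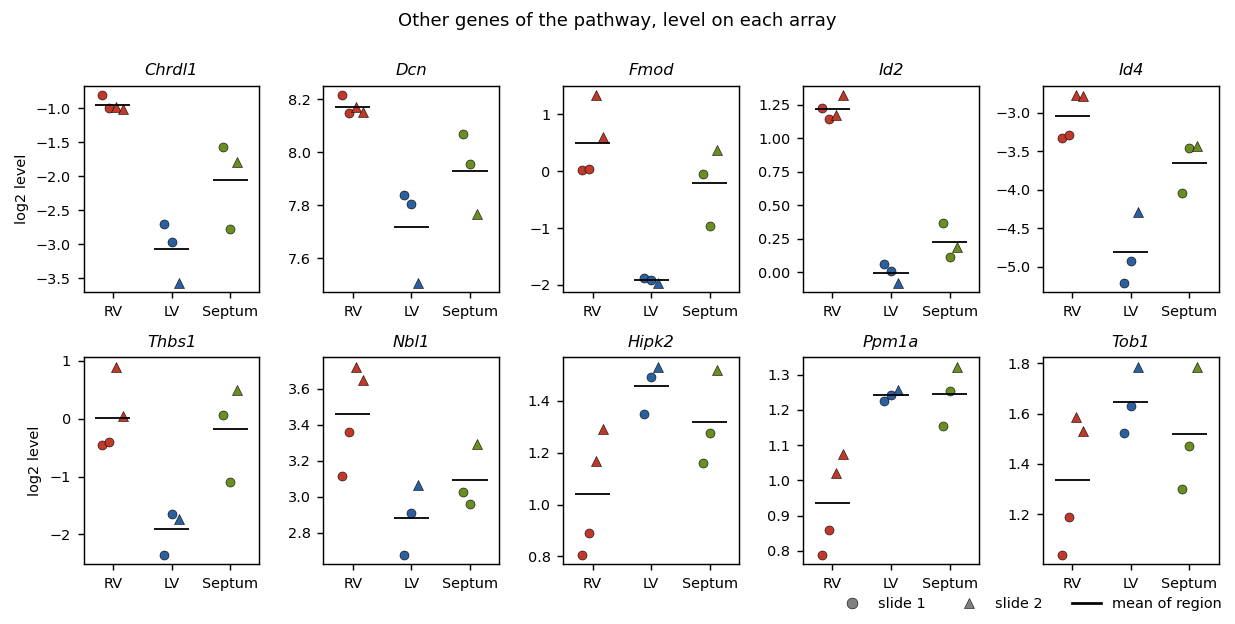
Level on each array (vertical axis, log2 units relative to the 75th percentile of the array) of 10 other genes of the pathway. Circles are slide 1, triangles slide 2, and lines region means. The LV means of Chrdl1, Fmod, Id2 and Thbs1 lie over 1 unit below the RV means, while Id4 was not well above background on any LV array.

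Markers of several cell types moved with the regions. The summed signal of 10 fibroblast markers was 8.62 to 8.87 in RV, 8.0 to 8.34 in LV and 8.29 to 8.54 in Septum on the log2 scale, with all 10 positive between RV and LV and 3 called. Mesothelial markers summed to 3.32 to 4.74 in RV, 2.39 to 3.09 in LV and 0.89 to 2.05 in Septum. Of these, 1 of 9 tested was called against LV and 8 against Septum. Valve and cartilage-like markers lay at 2.93 to 4.79 in RV, 1.78 to 2.23 in LV and 3.36 to 4.35 in Septum, with 3 of 8 tested called against LV. RV replicates 3 and 4, the RV arrays of slide 2, were the highest of RV for the valve, fibroblast and smooth muscle sums. They were the lowest of RV for the mesothelial and adipocyte sums. Adipocyte markers summed to 6.82 to 7.12, 6.77 to 7.08 and 6.69 to 7.08, and 5 of 10 were called against LV, all higher in RV. These sums do not show the single markers. Between RV and LV 6 adipocyte markers were positive and 4 negative, from -0.24 to 4.78, with a median of 1.70. Endothelial markers ran from 7.40 to 7.50, 7.12 to 7.31 and 7.10 to 7.33 (1 of 10 called), and macrophage markers from 5.79 to 5.95, 5.31 to 5.70 and 5.17 to 5.74 (none called). Between RV and LV 6 endothelial markers were positive and 4 negative, with a median of 0.055, while all 10 macrophage markers were positive. Smooth muscle and pericyte markers gave 7.44 to 8.22, 7.52 to 7.65 and 7.50 to 7.70, and atrial markers 5.17 to 6.85, 6.70 to 7.25 and 6.89 to 9.23, the latter with Bmp10 below background on all arrays. Blood markers gave 8.96 to 9.60, 9.39 to 9.55 and 9.08 to 9.43, with none called. With the slide block the calls between RV and LV were 8 of 9 mesothelial, 6 of 10 fibroblast, 6 of 8 valve and cartilage-like, 5 of 10 adipocyte, 4 of 10 endothelial, 3 of 10 smooth muscle and 2 of 10 macrophage markers higher in RV. Over all tested genes 8.79% were higher and 12.5% lower in RV with that block, and 3.13% and 1.84% without a block. Of the 10 cardiomyocyte markers, 9 had a negative difference and 4 were called lower in RV with the slide block, 3 with the replicate block and none without a block. The endothelial list also had 2 markers lower with the slide block, and the smooth muscle and atrial lists 1 each. The atrial list had 1 of 7 higher, with and without the block. The part of these cell types in the differences of the members was not tested.

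**Figure D5:**
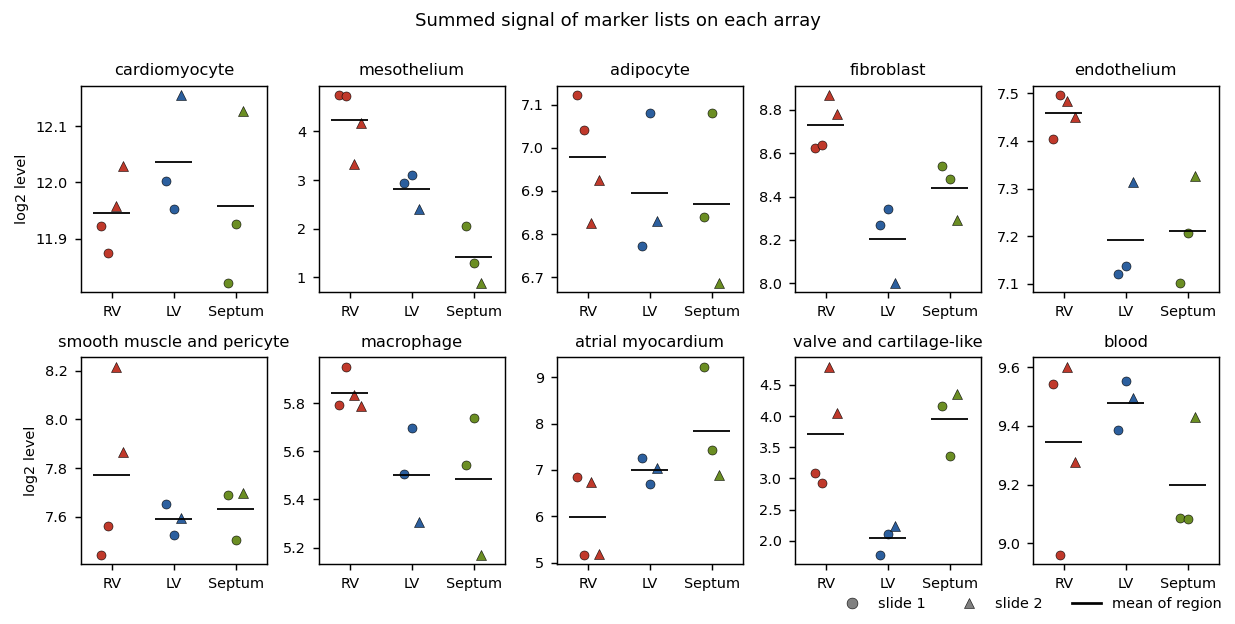
Summed signal of 10 marker lists on each array (vertical axis, log2 of the summed signal relative to the 75th percentile of the array). Circles are slide 1, triangles slide 2, and lines region means. Fibroblast, mesothelial, valve, macrophage and endothelial sums are higher on all RV arrays than on any LV array, while cardiomyocyte sums overlap between regions. Of the 10 endothelial markers, 4 had a negative difference between RV and LV.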

How the data were processed

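Total RNA of powdered frozen tissue was labelled with Cy3 and hybridised to SurePrint G3 mouse arrays. The authors scanned the arrays and deposited, per the file headers, processed signal intensity per spot from Feature Extraction 11.5.1.1, background-subtracted and not scaled between arrays. A GeneSpring table of log2 values, also deposited, matched the values computed here within 0.05 for 100.0% of the probes. Spots marked as outliers (56 to 128 an array) were left out, spots of a probe averaged, and log2 signals centred on the 75th percentile of each array. Of 56605 probes, 30240 were tested, those that all arrays of some region detected well above background. RefSeq accessions gave 32994 probes (58.3%) a gene, and each gene was represented by its brightest probe. Of 14 members with several tested probes, the sign of the difference between RV and LV differed between probes in 4 and the call without a block in none. Each of the 7 members called between RV and LV without a block has only 1 probe, so their calls could not be compared between probes. Calls with a block were not compared between probes.

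The main test was limma 3.58.1 in R 4.3.3 with one mean per region over all 10 arrays, which share one estimate of the spread, and Benjamini-Hochberg adjustment over all tested probes at 0.05. The scripts were tested on simulated data. Same-numbered arrays of different regions deviated together in all 9 pairs (r = 0.360 to 0.645). These pairs share a slide, and 8 pairs with other numbers on one slide gave 0.0903 to 0.577, so number and slide cannot be told apart fully. The numbers come from the sample titles. Alternatives were the slide or the replicate number as a block, each slide alone, other scalings, normexp background correction on median signals (mean signals were not in the files used here), the authors' log2 table, no filter, other tests and leaving out each array. Values are named and given for members called with or without the slide block and for the member with the largest difference in each role, and of the pathway list for up to 10 genes called likewise. Members and lists were chosen with earlier results of these data known. The number of arrays limits the precision.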

Additional observations from a re-analysis of the deposited data

Results flagged for a closer look

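Among 31 named genes, the 4 RV arrays were checked for a lone value, which chance alone gives in about 1 in 20 such groups. In Smad6, RV replicate 1 read 0.06 while the other RV arrays read 0.16, 0.17 and 0.17, and the gap was 0.892 of the range of the group. Without RV replicate 1 the Smad6 difference between RV and LV was 0.79 (adjusted p = 0.0143), and that between RV and Septum was 0.55 and no longer passed (adjusted p = 0.0732). In Chrdl1, RV replicate 1 read -0.80 while the other RV arrays read -1.0, -0.98 and -1.01, a gap of 0.875 of the range. Without it the Chrdl1 difference between RV and LV was 2.08 (adjusted p = 0.0178).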

How the results depend on the processing

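No named gene changed direction in a called difference under any alternative. Over the named members and all comparisons, 1327 of 1447 recomputed values stayed on their side of the threshold, 88 lost a call and 32 gained one. Most of these values belong to differences that were not called in the main fit. A call could be lost only in the 7 called between RV and LV and the 2 called between RV and Septum. The unchanged share therefore does not measure how stable the calls were. Over the other pathway genes 639 of 690 stayed on their side, 34 lost a call and 17 gained one, and there too most differences were not called in the main fit. Differences called in neither fit count as unchanged, even where their sign changed. The 7 members called between RV and LV became 19 with the slide block, 15 with the replicate block, 2 on slide 1 alone, 0 on slide 2 alone, 3 with median scaling (2 higher, 1 lower), 2 without the filter on dim probes, 4 with only the 2 regions compared and 4 by the methods' analysis of variance. Quantile normalization gave 6, and the percentile over detected probes, normexp, the authors' table and the mean of all probes gave 7. The 7 members called without a block have 1 probe each, so the mean of all probes left their levels unchanged. The 2 members called between RV and Septum became 6 with the slide block and 6 with the replicate block. On slide 1 alone 1 member passed, Gdf15 and neither of the 2, and on slide 2 alone 0. Quantile normalization gave 1, median scaling 0, normexp 1, no filter 0 and only the 2 regions 1. The analysis of variance gave 3, adding Tgfbr3 (adjusted p = 0.0215). Between Septum and LV the analysis of variance gave 1 and all other alternatives 0. For the analysis of variance, calls needed both the Tukey p and the Benjamini-Hochberg adjusted p of the F test among regions to be under 0.05. Only the F test was adjusted over probes, a rule stricter than the one in the methods. Leaving out 1 array gave 2 (without LV replicate 1 or 2) to 6 called members between RV and LV and 0 to 1 between RV and Septum. Over all probes, 696 were higher and 470 lower between RV and LV, 889 and 284 with the percentile over detected probes, and 364 and 264 between RV and Septum, 341 and 126 with median scaling. The fits on slide 2 alone rest on 4 arrays, and those without the filter adjust over 56605 probes. The causes of the other changes were not tested. Dim probes such as Id4 in LV give only a bound.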
